A study of Mus musculus with 14 samples.

Results

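CXC chemokines are small secreted proteins that steer leukocytes, and their receptors are coupled to G proteins. The 10 genes described here are the ligands Cxcl1, Cxcl2, Cxcl5, Cxcl9, Cxcl10, Cxcl12, Cxcl14 and Cxcl16 and the receptors Cxcr2 and Cxcr4. They were found by gene symbol among the 23682 genes that both deposited tables hold, and all 10 were present in both. Of these, 9 were among the 18810 genes that passed a filter on low counts, and Cxcl5 did not pass it.

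RNA of whole kidneys was sequenced in bulk from 14 adult mice, 1 library per mouse. In the first group, 5 double transgenic i-TERTci mice carried actin-rtTA and tetop-TERTci, which together give doxycycline-regulated and ubiquitous production of TERTci, a catalytically inactive telomerase reverse transcriptase, and received GSK2830371, which inhibits WIP1, the phosphatase encoded by Ppm1d. In the second group, 5 i-TERTci mice of the same genotype were given DMSO, the vehicle. The third group held 4 control mice with the actin-rtTA transgene alone. All 3 groups had doxycycline in the drinking water, for 28 to 49 days with GSK2830371, for 29 to 38 days with DMSO and for 30 days in the controls. The daily intraperitoneal injections of GSK2830371 or DMSO began once proteinuria was high, and no injection is recorded for the controls.

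CXC ligands fall into groups by the receptor they bind. Cxcl1, Cxcl2 and Cxcl5 carry the glutamate-leucine-arginine (ELR) motif, bind Cxcr2 and draw neutrophils, and in injured kidney tubules NF-kB drives the transcription of Cxcl1 and Cxcl2. Cxcl9 and Cxcl10 are induced by interferon and bind Cxcr3 on activated T cells, Cxcl12 binds Cxcr4 and the scavenger Ackr3, and Cxcl16 is a membrane-bound ligand of Cxcr6 that proteases can shed.

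Both the ELR ligands and the interferon-induced ligands lie in clusters on chromosome 5, and the 250 bases before the RefSeq start (RefSeq, GRCm38.p6) are shown for 4 of them, because Cxcl1 and Cxcl2 rose together whereas the changes of Cxcl9 and Cxcl10 had opposite signs. Capitals mark matches to the NF-kB consensus and to the core of the interferon-stimulated response element (ISRE), GAAANNGAAA, on either strand, and matches may overlap. The windows are chr5:90890995-90891244 (plus strand) for Cxcl1, chr5:90903649-90903898 (plus strand) for Cxcl2, chr5:92328080-92328329 (minus strand) for Cxcl9 and chr5:92348890-92349139 (minus strand) for Cxcl10, each written 5′ to 3′ on the gene's strand.
Cxcl1: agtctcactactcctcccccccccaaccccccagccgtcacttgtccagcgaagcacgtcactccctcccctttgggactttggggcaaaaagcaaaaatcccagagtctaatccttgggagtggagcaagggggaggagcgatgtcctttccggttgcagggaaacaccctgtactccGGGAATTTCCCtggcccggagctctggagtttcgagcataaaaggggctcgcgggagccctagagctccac
Cxcl2: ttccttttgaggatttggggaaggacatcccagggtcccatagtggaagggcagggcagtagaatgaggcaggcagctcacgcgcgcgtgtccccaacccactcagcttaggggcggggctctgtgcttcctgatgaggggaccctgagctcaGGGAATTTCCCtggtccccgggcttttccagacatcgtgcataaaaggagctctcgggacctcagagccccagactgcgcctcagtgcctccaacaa
Cxcl9: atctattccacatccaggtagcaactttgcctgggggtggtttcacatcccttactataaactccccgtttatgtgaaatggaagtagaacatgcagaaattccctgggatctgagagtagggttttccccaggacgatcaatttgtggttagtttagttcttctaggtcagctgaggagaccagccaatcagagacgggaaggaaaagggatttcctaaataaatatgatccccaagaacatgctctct
Cxcl10: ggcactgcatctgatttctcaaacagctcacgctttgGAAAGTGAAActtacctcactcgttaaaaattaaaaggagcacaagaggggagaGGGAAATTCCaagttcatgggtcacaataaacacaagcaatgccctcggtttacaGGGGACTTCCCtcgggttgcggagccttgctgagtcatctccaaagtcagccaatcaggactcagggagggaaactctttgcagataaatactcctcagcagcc

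The windows of Cxcl1 and Cxcl2 both hold GGGAATTTCC, at -71 to -62 in Cxcl1 and at -97 to -88 in Cxcl2, counted from the RefSeq start, and each site also matches the consensus on the other strand, shifted by 1 base. The window of Cxcl10 holds 4 NF-kB consensus matches, of which 3 overlap, and 1 ISRE core at -213 to -204. The Cxcl9 window holds neither motif, and neither do those of Cxcl12, Cxcr2 and Cxcr4, whereas that of Cxcl14 holds 1 ISRE core at -172 to -163. Of 32851 promoter windows of this length, 7.25% hold the NF-kB consensus, 0.0852% hold GGGAATTTCC and 2.98% hold the ISRE core. GGGAATTTCC was picked for this count because the windows of Cxcl1 and Cxcl2 share it. Its share over all windows is therefore no test of that sharing. Windows were at hand for 8 of the 10 genes, not for Cxcl5 and Cxcl16. A match describes the letters of the window and does not show that a factor binds there, and a window without a match says nothing about the factor.

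**Figure D1:**
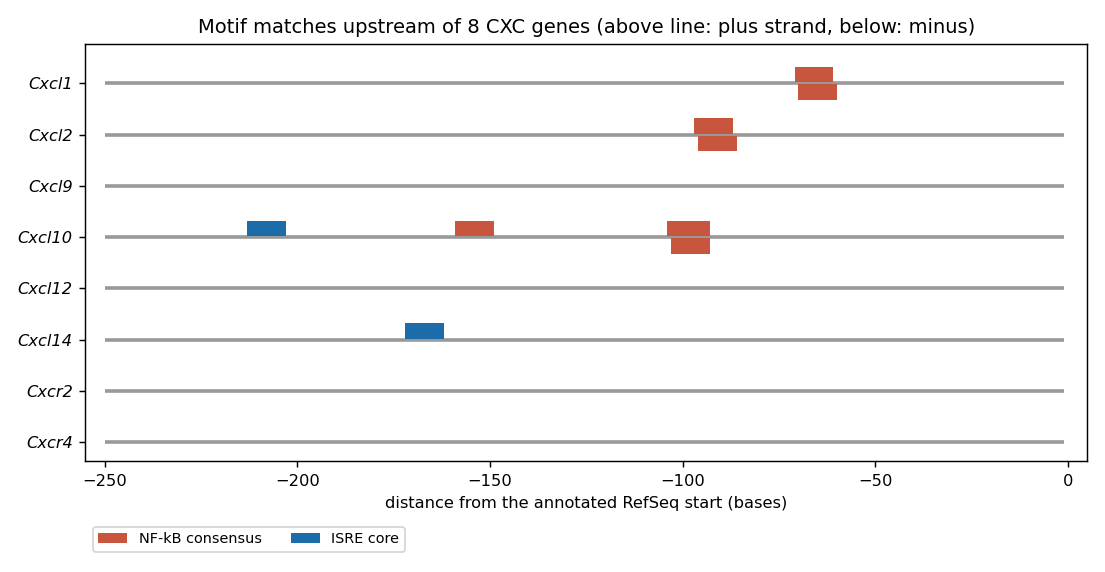
Position of motif matches in the 250 bases before the RefSeq start of 8 CXC genes. The x axis gives the distance from the start in bases, red boxes are NF-kB consensus matches and blue boxes ISRE cores, above the line for the plus strand of the gene and below it for the minus strand. Cxcl1 and Cxcl2 each show 1 site matched on both strands, and Cxcl10 shows 4 NF-kB matches and 1 ISRE core.

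The libraries held 48.4 to 49.4 M reads in genes with GSK2830371, 47.2 to 48.8 M with DMSO and 48.5 to 64.6 M in the controls. Tert, which the transgene encodes, had 1097 ± 943 normalised reads with GSK2830371 and 1535 ± 778 with DMSO (SD, n = 5 each), against 146 ± 27.5 in the controls (SD, n = 4), with no overlap with the controls. Mitochondrial genes took 5.07% to 8.35% of reads with GSK2830371, 4.95% to 9.52% with DMSO and 14.4% to 24.2% in the controls. Xist was on in 3 of 5 GSK2830371 libraries, 2 of 5 DMSO libraries and all 4 controls, and the 3 Xist-positive GSK2830371 libraries were those at 49 days. Genotype, injection and mitochondrial share differ together between i-TERTci mice and controls and cannot be told apart. For the members against controls, values within Xist-positive libraries are given where a call or size differs. In bulk tissue, fewer cells of a type and less RNA per cell cannot be told apart. Proximal tubule markers, which check the kidney label, summed to 88007 to 339106 normalised reads with GSK2830371, 113293 to 302960 with DMSO and 478333 to 857091 in the controls.

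Neutrophil-directed CXC genes were far higher in i-TERTci kidneys than in controls, in both treatment groups, while Cxcl12 was lower in both. Against the controls, GSK2830371-treated kidneys had higher Cxcl1, Cxcl2, Cxcl16 and Cxcr2 and lower Cxcl9, Cxcl12 and Cxcl14, so 4 of 9 tested genes rose and 3 fell. In that comparison 24.3% of all 18810 tested genes rose and 22.1% fell (limma, Benjamini-Hochberg adjusted p under 0.05). DMSO-treated kidneys had higher Cxcl1, Cxcl2, Cxcl10, Cxcl16 and Cxcr2 and lower Cxcl12 than the controls, so 5 of 9 rose and 1 fell, where 25.2% of all tested genes rose and 23.1% fell. In either direction 7 of 9 members passed with GSK2830371 and 6 of 9 with DMSO, where 46.3% and 48.3% of all tested genes did. The median log2 change of the 9 genes was 0.95 with GSK2830371 and 1.11 with DMSO, against 0.01 and 0.03 over all tested genes. The i-TERTci and control ranges did not overlap for 6 of 9 members with GSK2830371 and 5 of 9 with DMSO, where this held for 40.3% and 38.8% of all tested genes. Both comparisons share the same 4 controls. Cxcl2 and Cxcr2, with control means of 5.8 and 3.69 normalised reads, passed the filter on low counts only through i-TERTci libraries and could hardly fall. Between GSK2830371 and DMSO, no member passed the test and none of the 18810 genes did (0%). The median log2 difference of the 9 genes in that comparison was -0.93, against -0.01 over all tested genes, while Cxcl12 and Cxcr4 had positive differences (0.45 and 0.13).

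**Figure D2:**
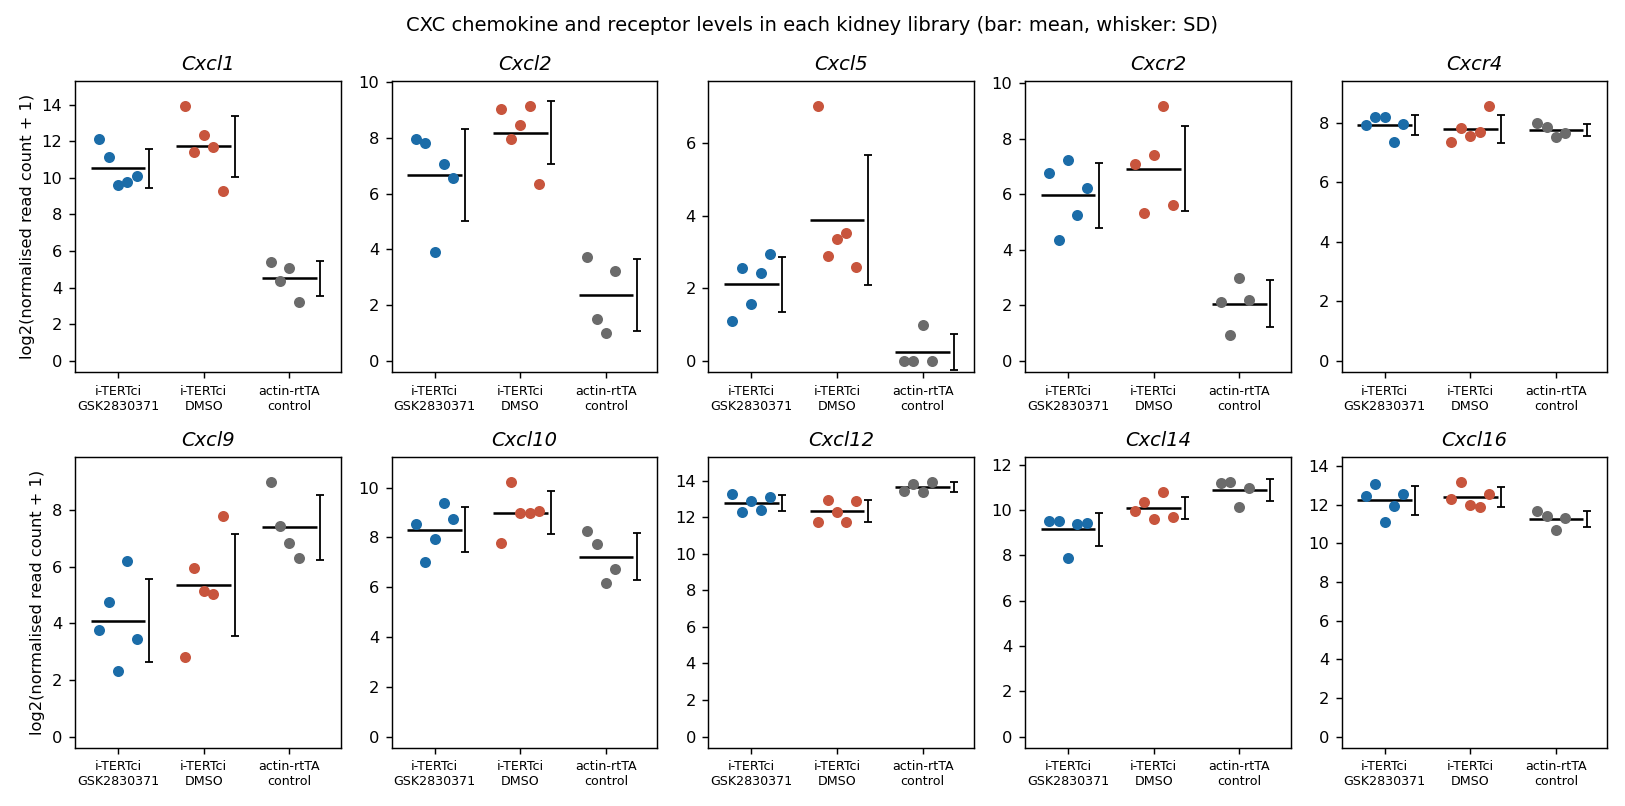
Level of each of the 10 CXC genes in each library, as log2(normalised read count + 1). Points are mice, with GSK2830371 (n = 5), DMSO (n = 5) and control (n = 4) from left to right, black bars are means and whiskers SD. For Cxcl1, Cxcl2, Cxcl5 and Cxcr2 every i-TERTci library lies above every control, and for Cxcl12 every one lies below.

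Cxcl1 (ENSMUSG00000029380, chromosome 5, 90891241 to 90893115, GRCm38), the mouse KC chemokine, showed the largest change of the 9 tested members. It had 4410, 2214, 764, 856 and 1088 normalised reads in the GSK2830371 libraries, 15225, 2762, 5131, 3288 and 629 in the DMSO libraries and 40.7, 19.5, 33.1 and 8.24 in the controls. Every i-TERTci library was above every control, with DMSO replicate 1 the highest and DMSO replicate 5 the lowest of the 10. The log2 change against controls was 6.02 with GSK2830371 (SE 0.79, limma adjusted p = 6.43e-05), a 64.8-fold difference. With DMSO it was 7.22 (SE 0.79, limma adjusted p = 1.45e-05), a 149-fold difference, and 7.83 without DMSO replicate 5. Among Xist-positive libraries the changes were 5.65 with GSK2830371 and 5.86 with DMSO, both past the threshold.

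Cxcl2 (ENSMUSG00000058427, chromosome 5, 90903871 to 90905938), also called MIP-2, is the neighbour of Cxcl1 and rose with it. It had 247, 225, 13.8, 134 and 93.5 normalised reads with GSK2830371, 527, 248, 352, 558 and 79.5 with DMSO, and 12.1, 1.86, 1 and 8.24 in the controls. The groups did not overlap with the controls, although GSK2830371 replicate 3, at 13.8, was just above the highest control. The log2 change against controls was 4.30 with GSK2830371 (SE 0.82, limma adjusted p = 0.00081), and 5.0 without its replicate 3. With DMSO the change was 5.83 (SE 0.82, limma adjusted p = 7.33e-05), and 4.80 among Xist-positive libraries.

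Cxcl5 (ENSMUSG00000029371, chromosome 5, 90759360 to 90761624), the mouse LIX chemokine, was the rarest of the 10 and did not pass the filter on low counts. It had 1.13, 4.84, 1.97, 4.33 and 6.68 normalised reads with GSK2830371, 128, 6.42, 9.27, 10.6 and 4.97 with DMSO, and 0, 0, 1 and 0 in the controls. A single read in the controls thus stands against 21 reads with GSK2830371, a ratio of 15.2 (95% exact interval 2.45 to 630), and against 139 with DMSO, a ratio of 103 (18.3 to 4116), and these intervals cover counting error only. Every i-TERTci library had more normalised Cxcl5 reads than every control, and most of the DMSO reads came from replicate 1. However, GSK2830371 replicate 1 and control replicate 3 each held 1 read before scaling. Their order, and with it the lack of overlap between GSK2830371 and controls, rests on the size factors alone. On the log2(value + 1) scale the difference from controls was 1.86 with GSK2830371 and 3.62 with DMSO (two-sided exact permutation test over mice, p = 0.0159 each, the smallest that 5 against 4 allows, and 0.0238 after Benjamini-Hochberg adjustment over the 3 comparisons). The p with GSK2830371 rests on that same order of 2 single reads. GSK2830371 libraries were lower than DMSO libraries by the same exact permutation test, with a difference of -1.76 and p = 0.0317 (adjusted over the 3 comparisons, 0.0317), but leaving out any 1 of replicates 1, 3 and 4 of either group gave p = 0.0635, and without DMSO replicate 1 the difference was -0.98. In the limma fit without the filter on low counts the Cxcl5 difference between the treatments had an adjusted p of 1.

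Cxcr2 (ENSMUSG00000026180, chromosome 1, 74153989 to 74161246), the receptor for these ligands and a neutrophil surface protein, rose as well. It had 109, 19.4, 152, 37.2 and 73.4 normalised reads with GSK2830371, 137, 39.4, 171, 575 and 48 with DMSO, and 3.3, 0.928, 7.02 and 3.53 in the controls. No i-TERTci library overlapped with the controls, and DMSO replicate 4 was well above the rest. The log2 change against controls was 3.91 with GSK2830371 (SE 0.74, limma adjusted p = 0.00066). With DMSO it was 4.87 (SE 0.74, limma adjusted p = 0.00011), and 3.43 among Xist-positive libraries.

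Neutrophil markers were higher in both i-TERTci groups than in controls, as were the receptor and its ligands. Within the i-TERTci libraries their order matched only in part. The summed level of 10 markers, none of them a member here, was 22238, 901, 14960, 500 and 3264 with GSK2830371, 31060, 981, 17555, 8769 and 1526 with DMSO, and 256, 158, 208 and 168 in the controls. Of the 10 markers, 9 rose in each i-TERTci group, where 24.3% of all tested genes rose with GSK2830371 and 25.2% with DMSO. Ly6g and Mpo were at 0 in all 4 controls, and S100a8, Ngp, Retnlg, Camp and Cd177 had control means of 0.251 to 6.55 normalised reads. Such markers passed the filter on low counts only through i-TERTci libraries and could hardly fall, so the count of 9 is partly fixed by the filter. S100a8, a calcium-binding alarmin of neutrophils, rose by 7.47 with GSK2830371 and by 8.37 with DMSO (log2, limma adjusted p = 0.00119 and 0.00049). The 4 i-TERTci libraries with the lowest Cxcr2, which were GSK2830371 replicates 2 and 4 and DMSO replicates 2 and 5, were also the 4 with the lowest marker sums. All 4 were Xist-positive. The 3 i-TERTci libraries with the highest Cxcl1, which were GSK2830371 replicate 1 and DMSO replicates 1 and 3, had the 3 highest marker sums. None of these 3 was Xist-positive. GSK2830371 replicate 3, next in marker sum at 14960, was Xist-positive and had the lowest Cxcl2 of all i-TERTci libraries and the second lowest Cxcl1. DMSO replicate 4, with the highest Cxcr2 at 575, had a marker sum of 8769, below that of GSK2830371 replicate 3. Cxcl2 was 248 in DMSO replicate 2 and 247 in GSK2830371 replicate 1, whose marker sums were 981 and 22238. Macrophage and dendritic cell markers and injured tubule markers also stood higher beside these genes. The sum of 11 macrophage and dendritic cell markers was 13633 to 42470 with GSK2830371, 13654 to 92344 with DMSO and 8222 to 12343 in the controls. Cd14 alone reached 78726 in the DMSO library with the highest sum. Of 10 tested markers 5 rose in each i-TERTci group, 1 fell with GSK2830371 (Xcr1) and 2 fell with DMSO (Xcr1 and Csf1r). The sum of 6 injured tubule markers was 433403 to 1460366 with GSK2830371, 206372 to 1269400 with DMSO and 71022 to 101797 in the controls, and 5 of 6 rose and 1 fell in each i-TERTci group. Spp1, with means of 554522 with GSK2830371 and 548675 with DMSO, weighed most in this sum. Over all tested genes, 24.3% rose and 22.1% fell with GSK2830371, and 25.2% rose and 23.1% fell with DMSO. Lcn2, which encodes the tubular injury protein NGAL, rose by 6.76 with GSK2830371 and by 6.50 with DMSO (log2, limma adjusted p = 9.39e-06 and 1.23e-05), while Havcr1, which encodes KIM-1, fell by 2.42 and 2.76 (0.0198 and 0.00953). Ngp, Camp, Cd177, Cd14, Spp1, Xcr1, Csf1r and Havcr1 were named after their values were seen. The part of neutrophil, macrophage and injured tubule content in the Cxcr2, Cxcl1 and Cxcl2 results was not tested. The part of sex in the order of the i-TERTci libraries was not tested either.

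**Figure D3:**
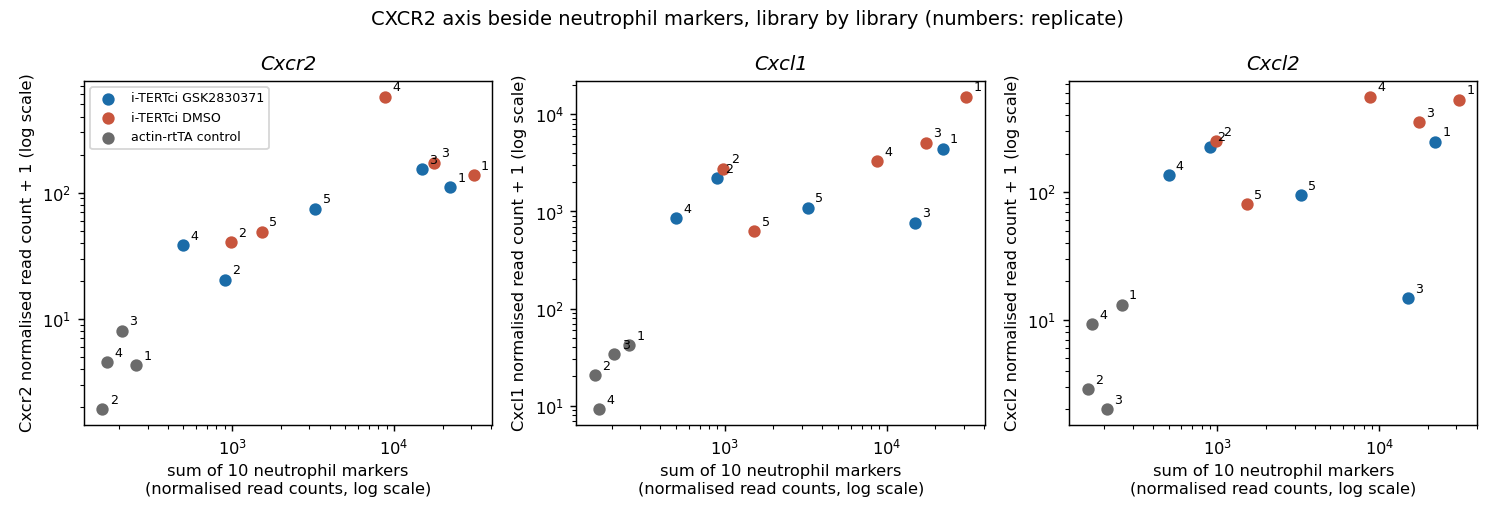
Normalised read count + 1 of Cxcr2, Cxcl1 and Cxcl2 (y axis, log scale) against the sum of 10 neutrophil markers in the same library (x axis, normalised read counts, log scale). Each point is a mouse, labelled with its replicate number and coloured by group. The controls, with sums of 158 to 256, lie apart in each panel, and GSK2830371 replicate 3 lies low for Cxcl1 and Cxcl2 at a sum of 14960.

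The interferon-induced neighbours Cxcl9 and Cxcl10 had changes of opposite sign: Cxcl9 fell with GSK2830371 and Cxcl10 rose with DMSO. Cxcl9 (ENSMUSG00000029417, chromosome 5, 92321347 to 92328079), also called MIG, had 12.4, 26.1, 3.94, 71.9 and 10 normalised reads with GSK2830371, 6.05, 61.4, 34.3, 31.7 and 222 with DMSO, and 504, 172, 112 and 77.7 in the controls. All GSK2830371 libraries were below all controls, and of the DMSO libraries replicate 5 overlapped with them. The log2 change was -3.29 with GSK2830371 (SE 0.91, limma adjusted p = 0.00859). With DMSO it was -2.03 (SE 0.91, limma adjusted p = 0.0767), which did not pass the threshold, whereas without DMSO replicate 5 it was -2.64 (limma adjusted p = 0.0174) and among Xist-positive libraries -0.49.

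Cxcl10 (ENSMUSG00000034855, chromosome 5, 92346638 to 92348889), also called IP-10, had 367, 127, 243, 668 and 423 normalised reads with GSK2830371, 215, 1190, 506, 505 and 531 with DMSO, and 301, 212, 71.2 and 106 in the controls. The ranges overlapped in both comparisons, with 3 of 5 GSK2830371 libraries and 4 of 5 DMSO libraries above every control. Cxcl10 rose with DMSO by 1.78 on the log2 scale (SE 0.53, limma adjusted p = 0.0129), and by 2.42 among Xist-positive libraries. With GSK2830371 the log2 change was 1.09 (SE 0.53, limma adjusted p = 0.107), which did not pass, and without its replicate 2 it was 1.42 (limma adjusted p = 0.036).

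Markers of T and natural killer cells, which carry Cxcr3, stood lower beside Cxcl9. The sum of 13 such markers was 158 to 381 with GSK2830371 (median 268), 148 to 904 with DMSO (median 241) and 490 to 1344 in the controls (median 605), and the DMSO library with 904 was replicate 5, the one with the highest Cxcl9. Of 11 tested markers 4 fell and none rose in each i-TERTci group. Over all tested genes, 22.1% fell and 24.3% rose with GSK2830371, and 23.1% fell and 25.2% rose with DMSO. Trac, the T cell receptor alpha constant gene, was among the markers that fell, by 2.55 with GSK2830371 and by 2.07 with DMSO (limma adjusted p = 0.00027 and 0.00118). The part of T cell content in the Cxcl9 result was not tested. Of 19 tested genes of the interferon-gamma axis, 2 rose and 5 fell with GSK2830371, and 3 rose and 1 fell with DMSO, smaller shares than the 46.3% and 48.3% of all tested genes that changed in either direction. Ifngr1, a chain of the interferon-gamma receptor, rose by 1.63 with GSK2830371 and by 1.58 with DMSO (limma adjusted p = 0.00025 and 0.00029), and Gbp3, an interferon-induced GTPase, fell by 1.83 with GSK2830371 and by 2.27 with DMSO (0.00267 and 0.00055). Irf1, an interferon-induced transcription factor, rose by 0.95 with DMSO (limma adjusted p = 0.0014) and had a log2 change of 0.44 with GSK2830371 (0.0907). Ifng itself is not analysed here.

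Cxcl12 (ENSMUSG00000061353, chromosome 6, 117168535 to 117181367), the stromal ligand of Cxcr4 also called SDF-1, was the member that fell in both i-TERTci groups. It had 9747, 4973, 7550, 5309 and 8674 normalised reads with GSK2830371, 3462, 8033, 5073, 3377 and 7504 with DMSO, and 10968, 14481, 10661 and 15508 in the controls. Every i-TERTci library was below every control. The log2 change was -1.31 with DMSO (SE 0.28, limma adjusted p = 0.00139), and -0.71 among Xist-positive libraries (limma adjusted p = 0.0401). With GSK2830371 it was -0.86 (SE 0.28, limma adjusted p = 0.0199), and the call was lost without control replicate 2 (-0.80, 0.0569), control replicate 4 (-0.77, 0.061) or GSK2830371 replicate 2 (-0.74, 0.0531), and among libraries at 31 days or fewer (-0.46, 0.277).

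Cxcr4 (ENSMUSG00000045382, chromosome 1, 128588199 to 128592293), the receptor of Cxcl12, did not pass in either comparison with the controls. It had 245, 294, 292, 163 and 246 normalised reads with GSK2830371, 162, 226, 188, 206 and 374 with DMSO, and 252, 231, 183 and 201 in the controls. The 3 groups overlapped, and the log2 change against controls was 0.17 with GSK2830371 (95% interval -0.37 to 0.71) and 0.04 with DMSO (-0.50 to 0.58). Ackr3, the scavenging receptor that takes up Cxcl12, fell, with 896 ± 211 normalised reads with GSK2830371 and 1723 ± 974 with DMSO (SD, n = 5 each), against 2899 ± 333 in the controls (SD, n = 4), or by 1.72 and 0.88 on the log2 scale (limma adjusted p = 0.00017 and 0.0155).

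Cxcl14 (ENSMUSG00000021508, chromosome 13, 56288643 to 56296551), a chemokine made by many epithelia, was lowest with GSK2830371. It had 727, 741, 233, 664 and 693 normalised reads with GSK2830371, 993, 1296, 782, 1776 and 826 with DMSO, and 2321, 2399, 1137 and 2010 in the controls. The GSK2830371 libraries lay below all controls and below all DMSO libraries, and of the DMSO libraries 3 of 5 lay below every control. The log2 change against controls was -1.74 with GSK2830371 (SE 0.35, limma adjusted p = 0.00095). With DMSO it was -0.80 (SE 0.35, limma adjusted p = 0.0664), not past the threshold, and it passed without control replicate 3 (-1.05, 0.026) or DMSO replicate 4 (-0.99, 0.0315) and among libraries at 31 days or fewer (-0.98, 0.006).

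Cxcl16 (ENSMUSG00000018920, chromosome 11, 70453983 to 70459984), the transmembrane ligand, rose by a smaller step. It had 5614, 8522, 2218, 3835 and 5953 normalised reads with GSK2830371, 5076, 9130, 3961, 3804 and 6017 with DMSO, and 3253, 2684, 1671 and 2497 in the controls. All DMSO libraries were above all controls, and of the GSK2830371 libraries replicate 3 overlapped with them. The log2 change was 1.11 with DMSO (SE 0.34, limma adjusted p = 0.0152), with 0.92 and 0.0536 without control replicate 3. With GSK2830371 it was 0.95 (SE 0.34, limma adjusted p = 0.0337), and the call was lost among Xist-positive libraries (0.78, 0.155) and without any 1 of control replicates 2, 3 and 4 and GSK2830371 replicates 1, 2 and 5 (adjusted p from 0.0558 to 0.106).

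**Figure D4:**
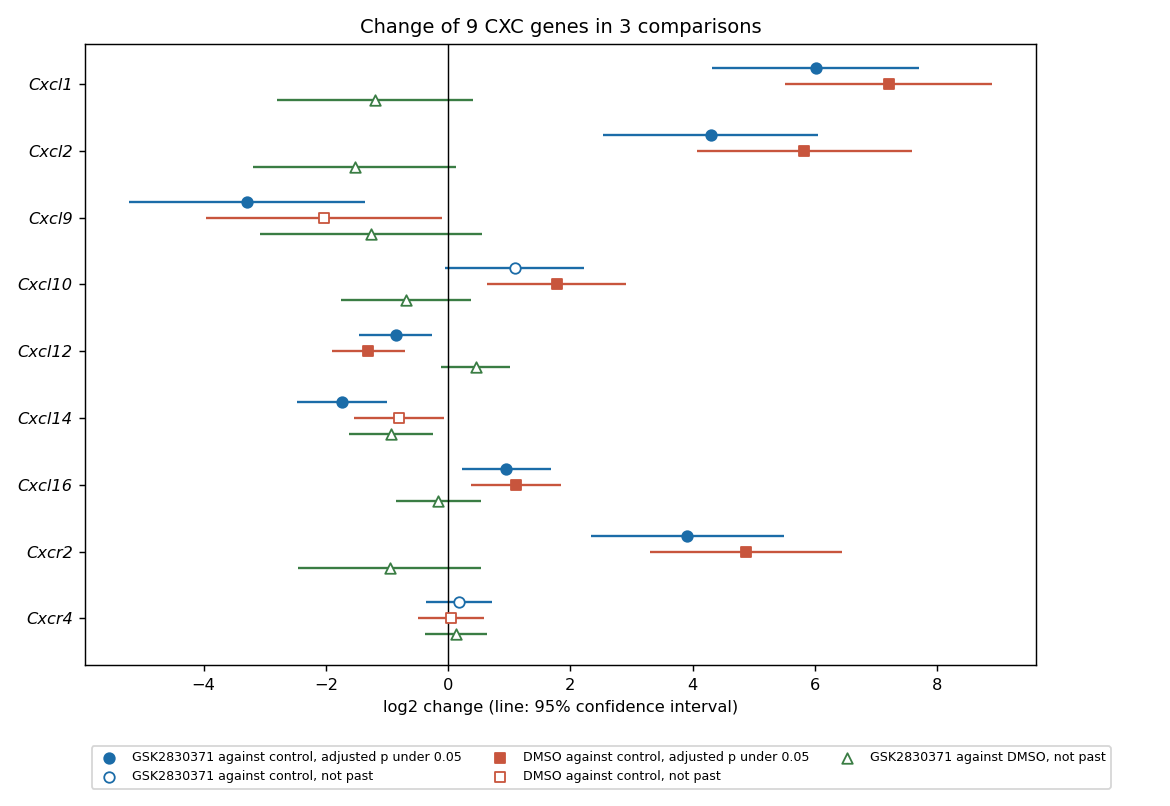
Log2 change of the 9 tested CXC genes with its 95% confidence interval, for GSK2830371 against control, DMSO against control and GSK2830371 against DMSO. Filled symbols have a limma adjusted p under 0.05. Cxcl1 has the largest changes, 6.02 and 7.22 against controls, and no symbol for GSK2830371 against DMSO is filled.

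Scaled to exon length, the order of the ligands differed between the groups. With GSK2830371 the highest median was that of Cxcl16 with 1858 normalised reads per kb, followed by Cxcl12 with 923 and Cxcl1 with 580, and their ranges over libraries overlapped (734 to 2821, 608 to 1192 and 407 to 2352). With DMSO, Cxcl1 had 1754 reads per kb, Cxcl16 had 1680 and Cxcl12 had 620, and the ranges of Cxcl1 (335 to 8120) and Cxcl16 (1259 to 3022) overlapped. In the controls Cxcl12 led with 1556 reads per kb, ahead of Cxcl14 with 1186 and Cxcl16 with 857, and Cxcl1 had 14. In the controls the ranges of Cxcl12 (1304 to 1897) and Cxcl14 (622 to 1313) overlapped only at their ends. Cxcl5 was last in all 3 groups, with medians of 2.32, 4.98 and 0 reads per kb in the GSK2830371, DMSO and control libraries.

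**Figure D5:**
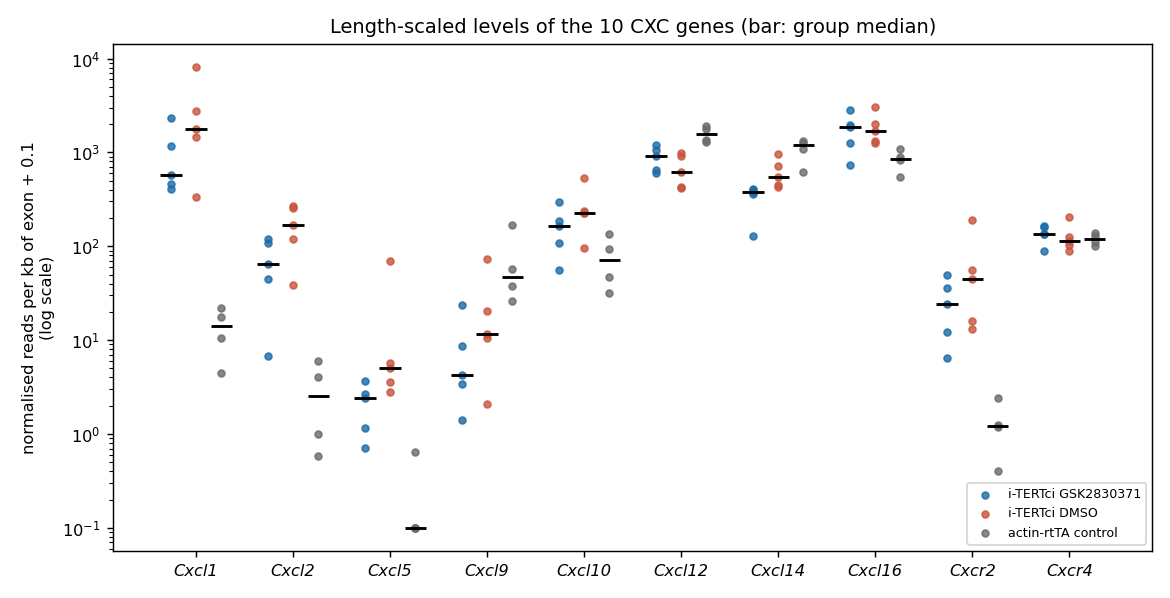
Normalised reads per kb of exon + 0.1 (y axis, log scale) of the 10 CXC genes, with GSK2830371, DMSO and control libraries from left to right within each gene. Points are mice and black bars group medians. Cxcl16 has the highest median with GSK2830371 (1858), Cxcl1 with DMSO (1754) and Cxcl12 in the controls (1556).

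The direct comparison of the treatments asked whether inhibiting WIP1 alters the transcriptome of i-TERTci kidneys. None of the 18810 genes passed by limma, 800 had an unadjusted p under 0.05 (4.25%), edgeR called 0 genes and DESeq2 called 1. Cxcl1 had a log2 difference of -1.20, with a 95% interval of -2.80 to 0.40, and Cxcl2 one of -1.53, with an interval of -3.19 to 0.13. The interval for Cxcr2 was -2.45 to 0.53, and that for Cxcl10 was -1.76 to 0.38. Cxcl14 was the 1 member of 9 whose GSK2830371 and DMSO libraries did not overlap, which held for 0.484% of all tested genes. Its log2 difference was -0.93 (95% interval -1.63 to -0.24, unadjusted p = 0.0117, limma adjusted p = 0.994), so it did not pass. The treatments also differed in days on doxycycline, since 3 of 5 GSK2830371 libraries were at 49 days and no DMSO library was beyond 38. At 31 days or fewer, with GSK2830371 replicates 1 and 5, the difference was -0.63 for Cxcl1, -0.68 for Cxcl2, -0.37 for Cxcl10 and -0.42 for Cxcl14. Cxcl9 then had -1.82 against -1.26 in all libraries, and Cxcl12 0.70 against 0.45. Xist-positive libraries gave -0.21 for Cxcl1, -0.87 for Cxcl2, -2.46 for Cxcl9, -1.52 for Cxcl10 and -1.08 for Cxcl14. None of these passed the threshold.

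Among 20 tested inducers and brakes of ELR ligand transcription, 5 rose and none fell with GSK2830371 against controls, where 24.3% of all tested genes rose and 22.1% fell. With DMSO 9 rose and 1 fell, where 25.2% of all tested genes rose and 23.1% fell. Tnfaip3, the NF-kB brake A20, rose by 2.03 with GSK2830371 and by 1.91 with DMSO (limma adjusted p = 2.28e-05 and 3.49e-05), and Relb, an NF-kB subunit, by 0.91 and 1.5 (0.00603 and 0.00015). Nfkbiz, the NF-kB cofactor IkB-zeta, rose by 0.68 with GSK2830371 and by 1.48 with DMSO (limma adjusted p = 0.0353 and 0.00022), and Il1r1, the interleukin-1 receptor, by 1.1 and 0.91 (0.00342 and 0.0104). Il1b, the interleukin-1 beta gene and an inducer of Cxcl1 and Cxcl2, was chosen for mention after its values were seen. It had 11.3, 8.71, 27.6, 29.4 and 13.4 normalised reads with GSK2830371, 468, 44, 83.4, 314 and 137 with DMSO, and 27.5, 6.49, 10 and 17.7 in the controls. All DMSO libraries were above all others, and the GSK2830371 libraries overlapped with the controls. With DMSO Il1b rose by 3.38 against controls (SE 0.63, limma adjusted p = 0.00047), while with GSK2830371 the log2 change was 0.25 (95% interval -1.08 to 1.57, limma adjusted p = 0.77). Between the treatments its log2 difference of -3.13 (95% interval -4.38 to -1.88) had the smallest unadjusted p of all 18810 genes, 7.18e-05, with a limma adjusted p of 0.994. Il1b was also the gene that DESeq2 called, with a log2 difference of -3.53 and an adjusted p of 1.48e-05, and edgeR gave -3.51 with an adjusted p of 0.817. Over all the alternatives other than DESeq2, its limma or edgeR adjusted p ranged between 0.169 and 1 and its log2 difference between -3.57 and -1.94.

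Of 9 other tested CXC genes, 2 rose and 2 fell with GSK2830371, and 3 rose and 1 fell with DMSO, where 46.3% and 48.3% of all tested genes changed in either direction, so the share that changed was close to that of all genes. Cxcl17, a mucosal chemokine, had 515 ± 281 normalised reads with GSK2830371 and 263 ± 202 with DMSO (SD, n = 5 each), against 7.71 ± 6.14 in the controls (SD, n = 4), log2 changes of 5.87 and 4.58 (limma adjusted p = 3.76e-05 and 0.00023). Pf4, platelet factor 4, had 79.6 ± 27.6 with GSK2830371 and 198 ± 147 with DMSO (SD, n = 5 each), against 20.7 ± 10.8 in the controls (SD, n = 4), changes of 1.94 and 3.05 (limma adjusted p = 0.0028 and 8.25e-05), while none of 2 tested platelet markers rose. Cxcl3, a further ELR ligand, rose by 3.16 with DMSO (limma adjusted p = 0.00231), to 23.4 ± 23.6 normalised reads (SD, n = 5), and had a log2 change of 1.49 with GSK2830371 (limma adjusted p = 0.106). Cxcr3, the receptor of Cxcl9 and Cxcl10, fell by 2.29 with GSK2830371 (limma adjusted p = 0.0355), to 13.4 ± 8.06 normalised reads (SD, n = 5), against 66.9 ± 43.7 in the controls (SD, n = 4). With DMSO the log2 change of Cxcr3 was -1.99 (limma adjusted p = 0.062). The Cxcr3 call was lost without control replicate 1 (-1.92, 0.112), control replicate 2 (-2.30, 0.0689), GSK2830371 replicate 1 (-2.01, 0.083) or GSK2830371 replicate 3 (-2.03, 0.0741). Cxcl11, another ligand of Cxcr3, had 160 ± 69.3 with GSK2830371, 236 ± 210 with DMSO and 59.7 ± 23.9 in the controls, and neither it nor Ppbp, Cxcl13 and Cxcr6 passed in either comparison. Cxcl15, Cxcr5 and Ackr1 did not pass the filter on low counts.

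Of 25 signalling genes downstream of chemokine receptors, 8 rose and 3 fell with GSK2830371, and 11 rose and 1 fell with DMSO. Of all tested genes 46.3% and 48.3% changed in either direction, so the share that changed in either direction was close to that of all genes. By direction, 24.3% of all tested genes rose and 22.1% fell with GSK2830371, and 25.2% rose and 23.1% fell with DMSO. With DMSO the signalling genes thus leaned towards rises. The inhibitory G protein subunits parted, as Gnai3 rose by 1.36 with GSK2830371 and by 1.45 with DMSO (limma adjusted p = 6.32e-05 and 3.35e-05) and Gnai2 fell by 0.99 and 0.94 (0.00127 and 0.00176). Vav1, a leukocyte exchange factor for Rac, rose by 1.29 with GSK2830371 and by 1.82 with DMSO (limma adjusted p = 0.00028 and 1.58e-05). Arrb2, a beta-arrestin that ends receptor signalling, fell by 0.90 with GSK2830371 (limma adjusted p = 0.00474) and had a log2 change of -0.50 with DMSO (0.0788). Of 11 proteases known to cut chemokines, 8 rose with GSK2830371 and 7 with DMSO, and none fell, where 24.3% and 25.2% of all tested genes rose. Several of them, among them Mmp8 with a control mean of 2.85 normalised reads, were near the floor in controls and could hardly fall. Mmp8, the neutrophil collagenase, rose by 5.24 with GSK2830371 and by 5.44 with DMSO (limma adjusted p = 0.001 and 0.00069), and Mmp9, a gelatinase, by 3.51 and 3.89 (0.0005 and 0.0002). Adam10, which sheds Cxcl16 from the cell surface, rose by 1.15 with GSK2830371 and by 1.08 with DMSO (limma adjusted p = 0.00058 and 0.00085). Several of these are leukocyte genes and rose beside the neutrophil markers, whose part was not tested.

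Within the 10 i-TERTci libraries, the 45 pairs of members gave no correlation past the threshold after adjustment over the pairs. Cxcl1 and Cxcl2 had a Pearson r of 0.79 (permutation p = 0.00585, adjusted 0.12) and a Spearman rho of 0.88 (permutation p = 0.00152, adjusted 0.0684), and r was 0.80 without the 2 libraries farthest from the median of Cxcl1. Cxcl2 and Cxcl14 had an r of 0.86 (permutation p = 0.00341, adjusted 0.12) and a rho of 0.75 (permutation p = 0.0172, adjusted 0.251), and r was 0.68 without the 2 farthest libraries. With the means of each treatment removed, r was 0.73 for Cxcl1 with Cxcl2 and 0.81 for Cxcl2 with Cxcl14 (adjusted permutation p = 0.435 each).

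Among 13057 protein-coding genes with a mean of at least 50 normalised reads, the levels most like those of Cxcl1 over the same 10 libraries were those of Mt2, Rhoc, Btg2, Mt1 and Rpsa, with a Pearson r of 0.97 for the first 2 and 0.96 for the others. Mt1 and Mt2 encode metallothioneins, which bind zinc and copper. The genes most like Cxcr2 were Slfn4 (r = 0.94), Zfp639 (0.92), Retnlg (0.92), Fam43a (0.91) and Grpel2 (0.91), and Retnlg is a neutrophil marker. Those most like Cxcl10 included Rgs14 (r = 0.91), Gins3 (0.85), Fst (0.83) and Nradd (0.82). Those most like Cxcl12 were Atp2a3 (r = 0.94), Map2k6 (0.91), Zfp157 (0.90), Cercam (0.88) and Lamc3 (0.88). These are the highest of many coefficients over 10 libraries that share 2 treatments, given as descriptions.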

How the data were processed

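Whole-kidney RNA of 14 mice was sequenced in bulk, 1 library each. Per the submitters' processing notes, FastQC, Trimmomatic, STAR and DESeq2 were used with the mm10 build, and how reads were counted, with which annotation and strand, is not given in the sources used here, so reads of overlapping or antisense genes cannot be told apart. The 2 deposited tables hold signal per gene, which the values show to be whole read counts that the authors divided by 1 size factor per library, with the same 4 controls in both. All values were whole multiples of the column's step (100%, tolerance 0.001), so reads were recovered, and the control reads of both tables had 0 mismatches. Of 24221 and 24164 genes, the 23682 in both were used. Gene coordinates and lengths came from GENCODE (GRCm38). New median-of-ratios factors over all 14 libraries scaled the reads, which gives the normalised read counts of the text, and 18810 genes passed filterByExpr with a minimum count of 10. The main test was limma 3.58.1 (R 4.3.3) on log2(value + 1), with 1 fit by group, a trend and robust moderation, two-sided, adjusted by Benjamini-Hochberg over all tested genes, with a threshold of 0.05. Fold changes are on that scale, which understates those of low genes. The fits were tested on simulated counts with known changes in 200 genes, with 1 setting of the spread for all genes and no change in genes of low count. That test does not cover genes near 0 in the controls or with a wider spread between mice. Alternatives were edgeR 4.0.16 and DESeq2 1.42.0 on the recovered reads, TMM scaling, no filter, pseudocounts of 0.5 and 4, 2 groups only, a replicate block, libraries at 31 days or fewer, Xist-positive libraries (sex was read from Xist and Ddx3y) and each library left out. Cxcl5 was tested by an exact permutation over mice, and the alternatives for it, for Il1b and for the correlations were chosen after seeing the data. Correlations used 100000 permutations. The members and the 16 gene lists (5 of pathways and 11 of cell type markers) were chosen with earlier results of these data known. Named genes were the 10 members, the measured other CXC genes, up to 3 risers and 3 fallers with the smallest p in each other pathway list, the head and the smallest p of each marker list, Tert and Ppm1d, and the 5 genes most like each of 4 members, and the text names only some of these, since some results are not reported here. None of the 26 pairs of libraries of the same group agreed within sampling noise. Python 3.11.15 with matplotlib 3.10.9 drew the figures.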

Additional observations from a re-analysis of the deposited data

Results flagged for a closer look

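In 5 of the 30 groups of libraries examined, 10 genes in 3 groups, 1 library stood far from the others of its group. The rule flags about 1 group in 20 by chance where values are normally distributed. It was applied to normalised read counts without a log scale, so that rate need not hold here. Cxcl5 had 128 normalised reads in DMSO replicate 1, where the nearest other DMSO library had 10.6. In the controls Cxcl5 had 1 normalised read in replicate 3, a single read, and 0 in the others. Cxcl9 had 222 in DMSO replicate 5, against 61.4 in the nearest, and that library also had the highest T and natural killer cell marker sum of its group, 904. Cxcl14 had 233 in GSK2830371 replicate 3, against 664 in the nearest. Cxcr2 had 575 in DMSO replicate 4, against 171 in the nearest. 

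Genes held in only 1 of the deposited tables entered no comparison. In the table of the DMSO group, Csf3, which encodes a growth factor for neutrophils, had a deposited value of 37.1 in DMSO replicate 1 and 25.2 in replicate 4, above the highest control value of 2.3, and 0, 1.81 and 0 in replicates 2, 3 and 5, below it. Cxcr1, a second receptor for ELR ligands, had deposited values of 1.2, 0, 0.907, 9.46 and 0 in DMSO replicates 1 to 5, with the controls at 0.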

How the results depend on the processing

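Under every setting run, the rises of Cxcl1, Cxcl2 and Cxcr2 in both i-TERTci groups kept their direction and stayed past the threshold. Genes changed numbered 8716 with GSK2830371 and 9079 with DMSO against controls, 8496 and 8892 by edgeR, 9118 and 9534 by DESeq2, and 7254 to 8625 and 7645 to 9108 with 1 library left out. Between the treatments the count was 0, by DESeq2 1 and in Xist-positive libraries 2, and 0 with any 1 library left out. The members that fell with DMSO numbered 1, but 2 with 2 groups only, with libraries at 31 days or fewer, by DESeq2 and with a replicate block, and 1 to 2 with 1 library left out (2 without control replicate 3 or DMSO replicates 4 or 5). The main test did not treat replicate numbers as pairs. Same-numbered deviations correlated at 0.05 to 0.10 for GSK2830371 with control, -0.06 to 0.09 for DMSO with control and -0.03 to 0.34 for the treatments. The library of the same number matched best for 4 of 4, 2 of 4 and 2 of 5 numbers. These values do not settle whether the numbers pair the mice. With the replicate block, 9248, 9589 and 0 genes changed, and Cxcl14 with DMSO had -0.79 (limma adjusted p = 0.0122). Signs turned for values near 0 or not past the threshold. Cxcr4 with DMSO against control was -0.06 with the replicate block, -0.04 without control replicate 3 and -0.14 without DMSO replicate 5, and Il1b with GSK2830371 was -0.11 at 31 days or fewer and -0.07 without control replicate 2 (leaving out 1 library, -0.07 to 0.57). Between the treatments, Xist-positive libraries gave -0.40 for Cxcl12, 0.15 for Cxcr2 and -0.26 for Cxcr4, libraries at 31 days or fewer gave 0.01 for Cxcl16 and 0.14 for Cxcr2, and Cxcl16 was 0.04 without DMSO replicate 2 and 0.12 without GSK2830371 replicate 3 (leaving out 1 library, -0.37 to 0.12). The cause of these turns was not tested. For Cxcr2 with DMSO the log2 change was 5.67 by edgeR and 5.71 by DESeq2 against 4.87, and a pseudocount of 4 gave 3.17 with GSK2830371 and 4.10 with DMSO, and for Cxcl2 3.61 and 5.08. Without the filter, Cxcl5 had limma adjusted p of 0.0477 with GSK2830371 and 0.00079 with DMSO against controls and 1 between the treatments. Of the alternatives for single genes, apart from those that leave out 1 library, 966 kept direction and call, 27 lost a call, 5 gained one and 7 turned sign; with 1 library left out these numbers were 873, 56, 4 and 5. With 3 or fewer Xist-positive libraries in the i-TERTci groups and few reads for Cxcl5, precision is limited there.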
